A study of Oryctolagus cuniculus with 6 samples.

Results

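COX7A1, COX6A2, CKM, CHCHD10 and SLC2A4 are 5 genes of energy use that skeletal and heart muscle express at high levels. They were studied here in smooth muscle cells of the rabbit basilar artery, the vessel that supplies the brainstem. They were chosen because their signal was lower after carotid ligation in these same arrays, so their values are a description and carry no test. They are 5 of 7317 named genes with a probe that could be tested, and the array reads them with 15 probes. COX7A1 and CKM have 1 probe each, COX6A2 has 2, CHCHD10 has 5 and SLC2A4 has 6. All 15 probes were well above background on all 6 arrays and entered the fit.

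The rabbits were female New Zealand White animals, whose age is not in the labels. In the ligated group both common carotid arteries were tied, a procedure meant to raise flow through the basilar artery, and in the sham group the same arteries were laid open and left untied. Cells were collected on day 5 with elastase and collagenase, and each group has 3 one-colour arrays. The labels give 3 animals a group without stating that each array holds a single animal, so p-values measure the spread between arrays.

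Cytochrome c oxidase is the last enzyme of the respiratory chain, and its small subunits VIa and VIIa exist in a liver form made by most cells and in a muscle form made by contractile cells. Creatine kinase moves phosphate between ATP and creatine, which buffers ATP at sites of rapid use, and the muscle and brain forms are separate genes. CHCHD10 is a small protein of the mitochondrial intermembrane space that works with its relative CHCHD2, and SLC2A4 encodes GLUT4, the glucose carrier that insulin and contraction bring to the cell surface of muscle and fat. Arterial smooth muscle in its contractile state also uses creatine kinase and GLUT4.

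The probes behind these values are 60 bases long and are printed because the reading of COX6A2 and SLC2A4 turns on which stretch each probe covers. Capitals mark the bases at which the 2 COX6A2 probes differ, and the rest is in lower case. The first 3 genes have no mapped position in the array files. The SLC2A4 probe shown lies at chr19:11862617-11862676 on oryCun2, on the minus strand, within a stretch that the array files assign to the SLC2A4 transcript.
COX7A1: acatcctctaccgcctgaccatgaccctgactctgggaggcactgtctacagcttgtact
COX6A2, copy a: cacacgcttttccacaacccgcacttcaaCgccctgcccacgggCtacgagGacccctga
COX6A2, copy b: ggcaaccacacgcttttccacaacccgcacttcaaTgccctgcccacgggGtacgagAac
CKM: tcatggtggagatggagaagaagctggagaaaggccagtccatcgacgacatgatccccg
SLC2A4, separate probe: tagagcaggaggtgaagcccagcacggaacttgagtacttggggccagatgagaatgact

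The COX6A2 probes share 54 bases and differ at 3 of them, C30T, C45G and G52A, counted from the 5′ end of the copy a probe. The array files describe them for different rabbit gene entries of the same subunit, and the gene table used for names calls copy b COX6A2. The same files give both probes a single target transcript, so whether the entries are separate gene copies is not known. Copy a and copy b are used here as labels of the entries. With so few differences, a transcript of either entry could be read by both probes. The 5 CHCHD10 probes are one sequence shifted by 1 to 4 bases, and so are 5 of the 6 SLC2A4 probes, with 56 to 59 shared bases and no mismatch in any pair. They are repeat readings of 1 stretch of each transcript. The separate SLC2A4 probe shares no stretch with the other 5, the brightest of which lies at chr19:11861805-11861864, so SLC2A4 is the only member read at separate places.

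The array behind each value was judged on the whole set of 43603 probes. Between 58.7% and 63.7% of probes were well above background on each array, no spot was saturated, and repeated spots had a median coefficient of variation of 4.76% to 5.57%. Slide 1 carried the sham arrays and slide 2 the ligated ones, and the effects of slide and ligation therefore cannot be told apart. After scaling, the 10 spike-in controls had a median change of -0.81 in log2, and for 3 of them the groups did not overlap. Their changes ran from -1.07 to 0.17, and several partner genes that passed, such as CHCHD2 and COX5B, had falls within that range. No setting scaled on these controls, and what part such a shift has in the changes below was not tested. Sham 3 was alone in its scan day. Sham 2 and sham 3 were the closest arrays, with an SD of 0.38 for the log2 difference between them over the tested probes. Sham 1 stood apart from its group, with an SD of 1.28 against each of sham 2 and sham 3, beside 1.05, 0.92 and 1.19 against ligated 1, 2 and 3. Ligated 3 was nearer to sham 2, at 0.96, than to ligated 1, at 1.02. Of 27410 tested probes, 2290 or 8.35% passed the limma test at an adjusted p of 0.05, with 2.65% lower and 5.71% higher in ligated arteries.

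Levels below are log2 signals relative to the 75th percentile of the same array, and a change is ligated minus sham on that scale. COX7A1, the muscle form of subunit VIIa, is the member whose liver-form relative has no named probe on this array. Its sham levels were 4.06, 4.36 and 4.30, and its ligated levels were 1.82, 1.40 and 1.77. The ligated arrays were all low and close together, and the groups were 2.24 log2 units apart at their nearest arrays. Means of 4.24 ± 0.16 for sham and 1.66 ± 0.23 for ligated arteries (SD, n = 3) make the signal 5.96-fold lower.

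COX6A2, the muscle form of subunit VIa, was read almost alike by its pair of probes. The copy a probe read 4.40, 4.36 and 4.29 in sham and 1.95, 2.29 and 2.46 in ligated arteries, a change of -2.12. The copy b probe read 4.10, 4.07 and 3.86 in sham and 1.76, 2.01 and 2.18 in ligated arteries, a change of -2.03. Both probes placed the arrays in the same order, ligated 3 above ligated 2 above ligated 1, and neither overlapped between groups. The copy a probe, the brighter, stands for the gene, with means of 4.35 ± 0.06 for sham and 2.23 ± 0.26 for ligated arteries (SD, n = 3).

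CKM, the muscle creatine kinase, read 3.63, 2.88 and 2.69 in sham and 0.70, 0.55 and 0.40 in ligated arteries. Sham 1 stood above the other sham arrays by more than the ligated arrays differed from each other, and the groups did not overlap. Means were 3.07 ± 0.50 for sham and 0.55 ± 0.15 for ligated arteries (SD, n = 3), or 5.74-fold apart. Before scaling, the signals were 2747, 1531 and 1446 in sham and 294, 368 and 207 in ligated arteries, and the probe was marked well above background on all 6 arrays.

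CHCHD10, the intermembrane space protein, varied least between the arrays of a group. Its brightest probe read 6.56, 6.61 and 6.53 in sham and 4.53, 4.49 and 4.58 in ligated arteries. The SD was 0.04 in sham and 0.05 in ligated arteries (n = 3), against a change of -2.03 or 4.08-fold. The 5 shifted probes had changes of -2.08 to -1.97, and none overlapped between groups. The signal before scaling was 20853, 20195 and 20681 in sham and 4193, 5637 and 3762 in ligated arteries.

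SLC2A4, the GLUT4 gene, read 4.80, 4.60 and 4.73 in sham and 2.56, 2.78 and 2.44 in ligated arteries on its brightest probe. Means were 4.71 ± 0.10 for sham and 2.59 ± 0.17 for ligated arteries (SD, n = 3), or 4.33-fold apart, and the 5 overlapping probes had changes of -2.19 to -2.01. The separate probe, far dimmer, read -0.70, -1.49 and -1.60 in sham and -2.73, -2.98 and -2.65 in ligated arteries. It too was lower on every ligated array, with a change of -1.52 or 2.87-fold, and its groups were 1.04 log2 units apart at their nearest. Sham 1 was the highest array there, at a signal of 137 against 73.8 and 73.7 on the other sham arrays, and the ligated arrays had signals of 25.1 to 31.8.

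**Figure D1:**
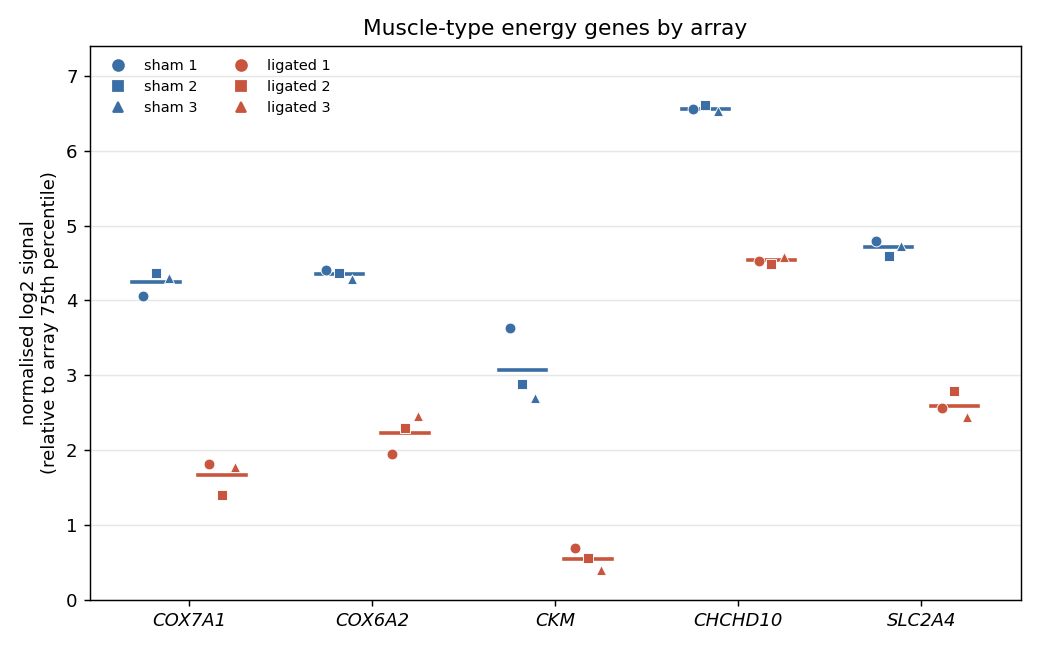
Normalised log2 signal of the brightest probe of each gene, 1 point per array with 3 sham arrays in blue and 3 ligated arrays in red, and a bar at each group mean. Every ligated point lies below every sham point of the same gene, and levels of different genes are read by different probes and are not comparable.

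**Figure D2:**
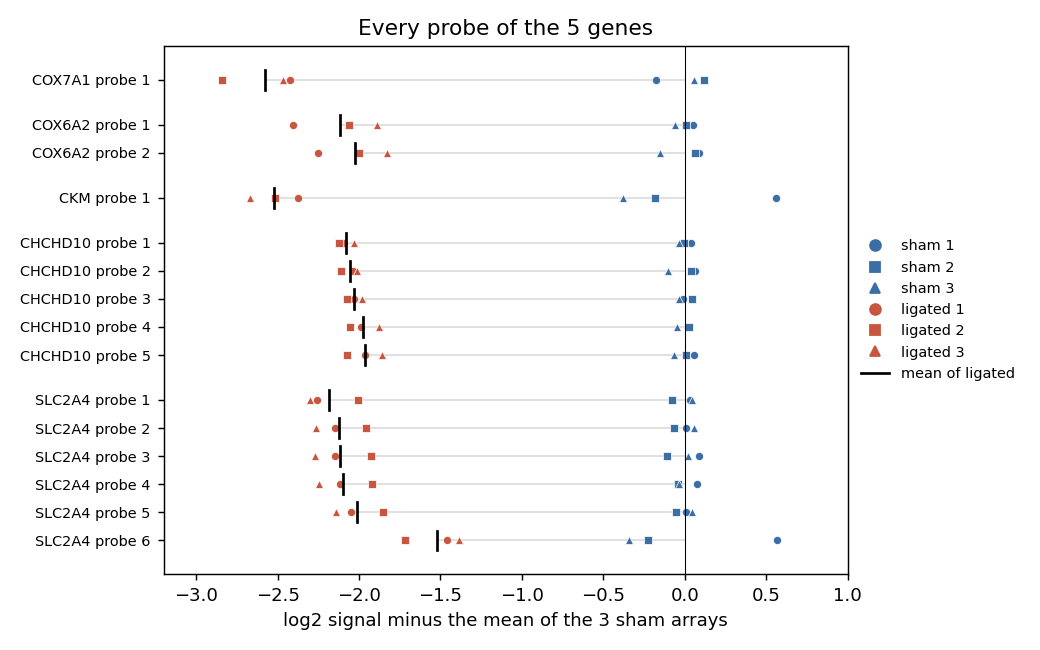
Log2 signal of all 15 probes on each array minus the mean of the 3 sham arrays, with a black bar at the mean of the 3 ligated arrays. Probes of a gene are ordered by their change, and SLC2A4 probe 6 is the separate probe, at -1.52, beside -2.19 to -2.01 for the other SLC2A4 probes.

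In all, 15 of 15 member probes had their highest ligated array below their lowest sham array. Over all tested probes 17.1% did so, and since the genes were chosen on this contrast the count is no result. Changes over the 15 probes ran from -2.58 to -1.52. Before any scaling between arrays they ran from -2.75 to -1.70. In bulk arrays, fewer contractile cells and less of each RNA per cell cannot be told apart.

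The members were also compared with each other over the arrays. After the mean of each gene over the 6 arrays was taken off, their average profile was 1.24, 1.11 and 1.06 for sham 1 to 3 and -1.14, -1.15 and -1.12 for ligated 1 to 3. The root mean square distance of a gene from that profile was 0.14 for CHCHD10 and SLC2A4, 0.17 for COX6A2, 0.24 for COX7A1 and 0.28 for CKM. Their SDs over the ligated arrays were 0.05 to 0.26.

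Each gene has a relative with a different distribution among tissues, and these were read beside it. COX6A1, the liver form of subunit VIa, read 7.12, 7.04 and 7.09 in sham and 6.34, 6.89 and 6.62 in ligated arteries. The groups did not overlap, but its change of -0.46 did not pass the limma test (adjusted p = 0.200). With quantile normalization the change was -0.0033 (adjusted p = 0.993), and with median centring it was -0.66 (adjusted p = 0.149). CKB, the brain-type creatine kinase, read 4.36, 3.77 and 3.98 in sham and 3.38, 3.19 and 2.65 in ligated arteries. The groups did not overlap, but the change of -0.97 ± 0.27 (SE) missed the threshold (limma adjusted p = 0.0771). CKB passed in 2 of 18 other settings. The mitochondrial creatine kinases CKMT1B and CKMT2 were not well above background on enough arrays to be tested. The array holds no probe named COX7A2, the liver form of subunit VIIa, or SLC2A3.

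CHCHD2, the partner of CHCHD10, fell. It read 6.79, 6.47 and 6.67 in sham and 5.59, 5.95 and 5.71 in ligated arteries, a change of -0.89 ± 0.20 (SE, limma adjusted p = 0.0417). Of its 5 probes 5 passed, and the call ended when any of the 6 arrays was left out, with adjusted p from 0.0733 to 0.161, and with quantile normalization, where the change was -0.50. CHCHD3 and CHCHD6, parts of the complex that shapes the cristae, had changes of -0.31 and -0.19 and overlapped between groups. SLC2A1, the GLUT1 carrier of most cell types, read 4.62, 3.51 and 3.44 in sham and 2.63, 1.85 and 3.51 in ligated arteries. Ligated 3 lay among the sham arrays, and the change of -1.19 did not pass (limma adjusted p = 0.186).

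Within the same array, the gap between each gene and its relative was set against its mean on the sham arrays. It shows unequal change only, and each comparison contains a value the genes were chosen on, so no test is given. COX6A2 relative to COX6A1 stood at -1.67, -1.86 and -1.43 on the ligated arrays, against 0.01, 0.05 and -0.07 on the sham arrays. CKM relative to CKB stood at -1.71, -1.67 and -1.28 on the ligated and 0.24, 0.08 and -0.32 on the sham arrays. CHCHD10 relative to CHCHD2 stood at -0.98, -1.38 and -1.04 on the ligated and -0.15, 0.22 and -0.06 on the sham arrays. In these 3 pairs the groups stayed apart, with mean shifts of -1.65, -1.55 and -1.14. SLC2A4 relative to SLC2A1 overlapped between groups, at -0.92, 0.08 and -1.92 on the ligated and -0.67, 0.24 and 0.44 on the sham arrays.

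**Figure D3:**
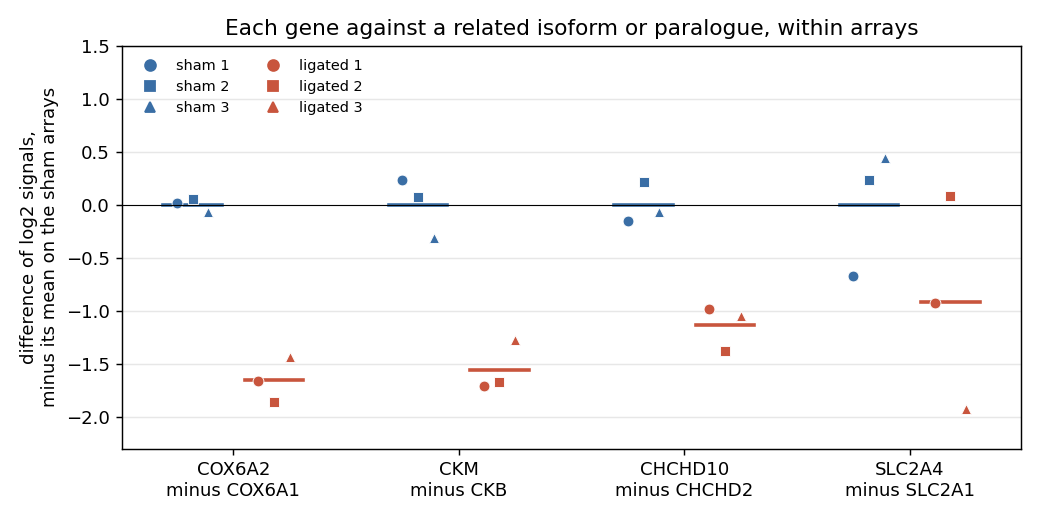
Log2 signal of a gene minus that of its relative on the same array, set to a mean of 0 over the 3 sham arrays (blue), with the 3 ligated arrays in red and bars at group means. The groups stay apart for COX6A2, CKM and CHCHD10, with mean shifts of -1.65, -1.55 and -1.14, and overlap for SLC2A4.

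The wider pathways of the 5 genes were read from 7 lists, which leave the members out. Of 209 listed genes 111 were tested. In this comparison 8.97% of all named genes passed the limma test, with 2.71% lower and 6.26% higher. Of the 111 partner genes 8 were lower and 1 was higher at an adjusted p of 0.05, which is 8.11% in all and 7.21% lower. The median change was -0.25 over the partner genes and 0.00 over all named genes, and 40 of the 111 had every ligated array below every sham array, beside 17.7% of all named genes. Without sham 2, and also without sham 3, none of the 111 passed in limma, with 22 at an unadjusted p under 0.05 in each case. Calls fell over all 7317 named genes as well. Of these, 182 passed without sham 2 and 161 without sham 3, with 1517 and 1413 at an unadjusted p under 0.05. With all arrays 34 of the 111, or 30.6%, had an unadjusted p under 0.05, beside 28.0% of all named genes. Of the 111, 28 or 25.2% were lower at that p, beside 12.5% of all named genes. Without sham 1 the count of passing genes was 7. Without ligated 1, ligated 2 or ligated 3 the count was 1, 2 or 4, and with normexp background correction it was 0, with 1 at an unadjusted p under 0.05. Over all named genes the counts were 626 without sham 1 and 350, 219 and 626 without ligated 1, 2 and 3. With normexp the count over all named genes was 0, with 176 at an unadjusted p under 0.05.

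Among the other cytochrome c oxidase subunits, 1 of 7 tested genes fell and the median was -0.47. With quantile normalization none of the 7 passed in limma, with 2 at an unadjusted p under 0.05, and the median was -0.17. COX5B, a subunit on the matrix side of the enzyme, read 6.50, 6.53 and 6.50 in sham and 5.25, 5.76 and 5.72 in ligated arteries. Its change of -0.93 ± 0.21 (SE) passed (limma adjusted p = 0.0430). The call ended whichever of the 6 arrays was left out, with adjusted p from 0.0561 to 0.156, and with quantile normalization, where the change was -0.58. COX7B at -0.70, COX6C at -0.58, COX6B1 at -0.47 and NDUFA4 at -0.45 did not pass, and COX8A was at 0.28. Of these, COX7B passed in 2 of 18 other settings. Of 15 assembly factors 1 fell, COA5, by 0.94 on the log2 scale (limma adjusted p = 0.0366), and the median was -0.15. When an array was left out, COA5 passed only without ligated 3, at 0.0362, and had adjusted p of up to 0.153 otherwise.

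None of 7 tested creatine and adenylate kinase genes passed the limma test, with 1 at an unadjusted p under 0.05, and the median was -0.25. CKB, given above, and GATM, the first enzyme of creatine synthesis, at -0.40, had the smallest p. GATM passed with quantile normalization, at -0.72 (limma adjusted p = 0.0496). Its change was -0.03 with normexp without spots of high local background and 0.52 with normexp on all spots. GATM was dim, well above background on only 1 ligated array. Of 17 genes of the CHCHD family and the inner membrane 2 fell, CHCHD2 and OMA1, and the median was -0.19. OMA1, a protease of the inner membrane that responds to stress, read -0.17, -0.28 and -0.37 in sham and -1.80, -1.07 and -1.26 in ligated arteries (limma adjusted p = 0.0402). The call ended when any of the 6 arrays was left out, with adjusted p from 0.0600 to 0.141, and 1 of its 3 probes passed. Its change of -1.10 was -0.63 with normexp background correction without spots of high local background and -0.24 with normexp on all spots.

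Glucose uptake and GLUT4 traffic gave 1 rise and 1 fall among 20 tested genes, with a median of -0.20. HK2, the hexokinase that phosphorylates glucose in muscle, rose from levels of -3.46, -3.46 and -3.69 in sham to -0.50, -0.99 and -2.11 in ligated arteries. The ligated arrays differed widely from each other, all lay above the sham arrays, and the change was 2.34 ± 0.41 (SE, limma adjusted p = 0.0223). It was 1.09 with normexp without spots of high local background and 0.89 with normexp on all spots. FLOT1, a protein of lipid rafts, fell by 1.27 on the log2 scale (limma adjusted p = 0.0234), with 2 of its 3 probes passing. Both calls ended without sham 2, sham 3, ligated 1 or ligated 2, where the highest adjusted p was 0.0936 for HK2 and 0.104 for FLOT1.

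Muscle isoenzymes and fuel genes had 3 falls among 19 tested genes and a median of -0.51. CASQ2, the calcium-binding protein of the sarcoplasmic reticulum, read 6.42, 6.43 and 6.53 in sham and 5.07, 5.17 and 4.46 in ligated arteries, a 2.95-fold fall that 3 of 3 probes shared (limma adjusted p = 0.0149). Its call ended without sham 2 or sham 3, at adjusted p of 0.0677 and 0.0747. PHKG1, the catalytic subunit of muscle phosphorylase kinase, fell by 1.78 on the log2 scale (limma adjusted p = 0.0426). PYGM, the muscle glycogen phosphorylase that this kinase activates, fell by 1.30 on the same scale (limma adjusted p = 0.0427). Sham 1 was the highest array for both, at 0.60 for PHKG1 and -0.39 for PYGM, and when an array was left out both calls held only if it was sham 1, with adjusted p otherwise of up to 0.121 for PHKG1 and 0.126 for PYGM. With normexp without spots of high local background PHKG1 was 2.01-fold and PYGM 1.56-fold lower, neither passing, and with normexp on all spots 1.37-fold and 1.09-fold. As to the rest, 16 of the 19 genes did not pass.

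None of 26 tested regulators of these genes passed the limma test, with 9 at an unadjusted p under 0.05, beside 28.0% of all named genes. Lower at that p were 8 of the 26 genes, beside 12.5% of all named genes. Their median was -0.31, and 19 had a change below 0. PPARGC1A, the coactivator of mitochondrial biogenesis, read -0.64, -1.63 and -1.71 in sham and -1.29, -1.96 and -2.60 in ligated arteries, with overlap and an adjusted p of 0.385. The muscle transcription factors MEF2C, at 0.25, and MEF2D, at -0.10, overlapped between groups as well. MYOCD, the coactivator of smooth muscle genes, read 3.26, 2.93 and 3.03 in sham and 2.85, 3.49 and 0.80 in ligated arteries, so only ligated 3 was far below. PPRC1, a relative of PPARGC1A, did not overlap between groups, with a change of -0.66 ± 0.17 (SE, limma adjusted p = 0.0658). PPRC1 passed in 2 of 18 other settings. TFAM, which packages mitochondrial DNA, had a change of -0.95 (limma adjusted p = 0.103), and 1 of its 4 probes passed. The probe that stands for the gene passed without ligated 2, at 0.0486. The array has no probe named ESRRA, MEF2A or SRF.

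**Figure D4:**
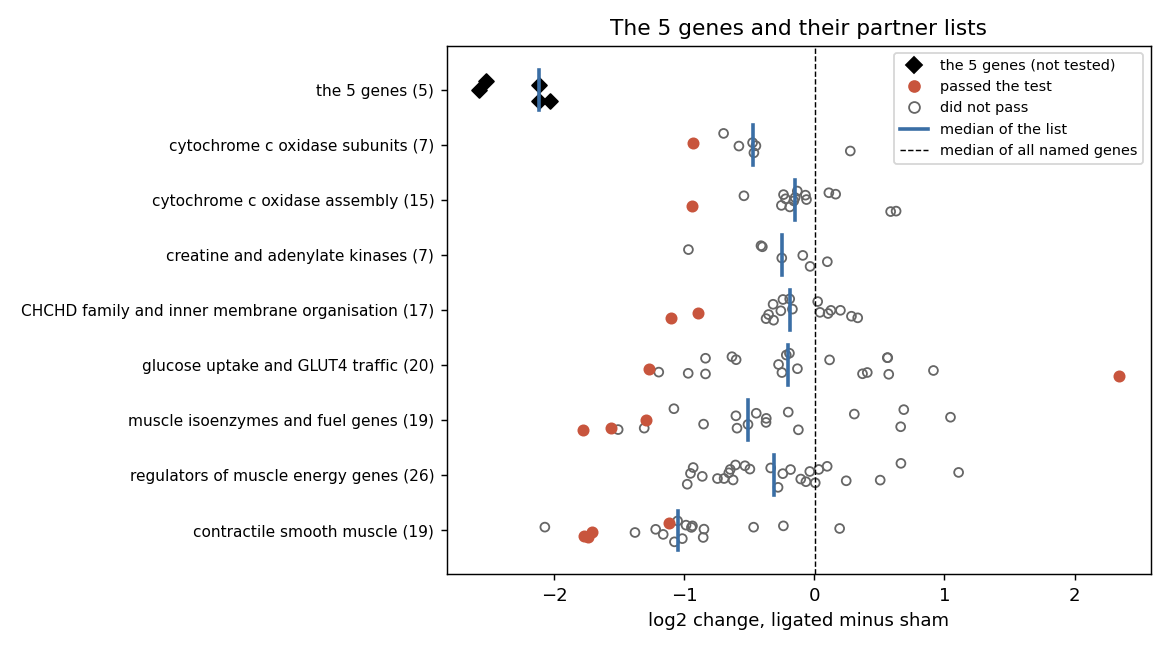
Log2 change, ligated minus sham, of the 5 genes (black diamonds, not tested) and of every tested gene of 8 partner lists, with the number of genes in brackets, filled red points for genes that passed the limma test and a blue bar at each median. The 5 genes lie from -2.58 to -2.03, and the medians of the 7 energy lists lie from -0.51 to -0.15.

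The cells were labelled smooth muscle, and 19 of 21 listed contractile genes had a probe, each well above background on all 6 arrays. Of these 19 genes 4 fell, beside 2.71% of all named genes, and 15 did not pass. Lower at an unadjusted p under 0.05 were 13 of the 19, beside 12.5% of all named genes, and none was higher at that p. The median change was -1.05. With normexp background correction none of the 4 passed, with 3 of the 19 at an unadjusted p under 0.05. CSRP1, a LIM protein of smooth muscle, fell by 1.74 and the actin-binding SMTN by 1.77 on the log2 scale (limma adjusted p of 0.00509 and 0.00794), and both still passed when any of the 6 arrays was left out. The integrin ITGA8 fell by 1.71 and the intermediate filament gene DES by 1.11 (limma adjusted p of 0.0111 and 0.0399). Only 1 of the 2 DES probes passed, and DES did not pass on the mean of its probes. The change of ITGA8 was -0.89 with normexp without spots of high local background and -0.21 with normexp on all spots, and that of DES was -0.69 with quantile normalization. The ITGA8 call ended without sham 2 or sham 3, at adjusted p of 0.0528 and 0.0619, and the DES call held only when ligated 2 was the array left out, with adjusted p of up to 0.156 otherwise. ACTA2, the smooth muscle actin, had a change of -0.94 with overlap, and MYH11, the smooth muscle myosin, one of -1.16, and neither passed. The array has no probe named CNN1.

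Markers of other cell types that express these genes were read in the same way, as sums of scaled signals over the genes with a probe, where 1 is the 75th percentile of an array. Of 23 striated muscle markers with a probe 13 were too dim to be tested. MYH7, TNNT3, MYL1 and MYL2 were above background on no array, and MYH1 only on 2 ligated arrays. Others, among them MYH6, TNNT2, TTN and RYR1, were bright enough to be tested. None of 10 tested markers passed the limma test, with 2 at an unadjusted p under 0.05, and their median change was -0.39. The Z-disc gene TCAP is not on this list. It was lower on every ligated array and is given below with the genes nearest in profile. TNNC2 did not overlap between groups, at -0.82 (limma adjusted p = 0.103), and passed in 1 leave-out fit, at 0.0469. TNNC1 had a change of 0.94 (limma adjusted p = 0.127). The sum over all 23 was 483 to 885 in sham and 254 to 594 in ligated arteries, nearly all of it from ACTA1 and ACTC1. The actin genes are close in sequence, so which of them these probes read is uncertain. Without these actins the sum over 21 genes was 2.90 to 3.42 in sham and 3.00 to 4.42 in ligated arteries. Both sums overlapped between groups. No adipocyte marker of 4 with a probe could be tested, and ADIPOQ was above background on no array.

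Of 7 fibroblast and meningeal markers 4 rose and none fell, beside 6.26% higher and 2.71% lower among all named genes. Their median was 1.97, and their sum was 87.4 to 103.6 in sham and 145.9 to 189.5 in ligated arteries. The collagen-binding proteoglycan LUM read 3.35, 3.55 and 3.58 in sham and 5.96, 5.87 and 5.78 in ligated arteries (limma adjusted p = 0.00233, and up to 0.0197 with an array left out). With normexp on all spots none of the 4 passed in limma, with 3 at an unadjusted p under 0.05. COL14A1 and SLC6A13 lost their calls without sham 2, sham 3 or any ligated array, at adjusted p of up to 0.134 and 0.139. The globin HBB2 read 7.08, 8.10 and 8.05 in sham and 4.32, 4.51 and 8.74 in ligated arteries, so ligated 3 stood far above the other ligated arrays. Without ligated 3, HBB2, HBA and ALAS2, markers of red cells, passed with changes of -3.33, -3.34 and -3.80 (limma adjusted p of 0.0136, 0.0140 and 0.00782). PDGFRB, a receptor of pericytes and fibroblasts, had a change of 2.78 ± 0.68 (SE, limma adjusted p = 0.0572). It passed without ligated 1, at 0.0429, without ligated 3, at 0.0275, and when every array had to be above background, at 0.0332. With all arrays no tested endothelial, pericyte, macrophage, erythroid, or neuron and glia marker passed in limma, with 3 at an unadjusted p under 0.05. The sums were 51.9 to 104.9 and 55.6 to 140.9 for endothelium in sham and ligated arteries, 15.3 to 15.9 and 8.27 to 27.8 for pericytes, 6.52 to 13.1 and 6.52 to 21.3 for macrophages, 189 to 389 and 28.5 to 668 for erythroid cells, and 0.51 to 0.61 and 0.34 to 0.57 for neurons and glia. What part other cells have in the lower signal of the 5 genes was not tested.

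The named genes whose profile over the 6 arrays came nearest to the average profile of the 5 members were TCAP, RASGRP2, KCNAB1, FANCF and SYPL2. The root mean square difference was 0.15 for TCAP, 0.18 for RASGRP2, 0.21 for KCNAB1, 0.22 for FANCF and 0.25 for SYPL2, which is within the 0.14 to 0.28 of the members themselves. TCAP, telethonin, a protein of the muscle Z-disc, read 3.88, 3.82 and 3.58 in sham and 1.83, 1.74 and 1.65 in ligated arteries. KCNAB1, a subunit that accompanies voltage-gated potassium channels, read 1.89, 1.98 and 2.20 in sham and 0.03, -0.07 and 0.17 in ligated arteries. FANCF was 4.01-fold lower, but 1.11-fold lower with normexp on all spots. These genes were picked for their likeness to the members, so no test of them is given.

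The changes of the 5 genes were also computed under 18 other processing settings, and none turned positive. Some settings, namely the probe filters, the variance model and the replicate block, leave the difference of group means as it was. Their result was fixed in advance. Since the genes were chosen on this contrast, the ranges are a description and no test. COX7A1 ranged from -2.77 to -2.25, COX6A2 from -2.32 to -1.95, CKM from -2.72 to -1.84, CHCHD10 from -2.23 to -1.72 and SLC2A4 from -2.31 to -1.94. Without sham 1, the array that stood apart from its group, the changes were -2.67 for COX7A1, -2.09 for COX6A2, -2.24 for CKM, -2.03 for CHCHD10 and -2.07 for SLC2A4. Without ligated 3 they were -2.63, -2.23, -2.45, -2.05 and -2.04 in the same order.

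**Figure D5:**
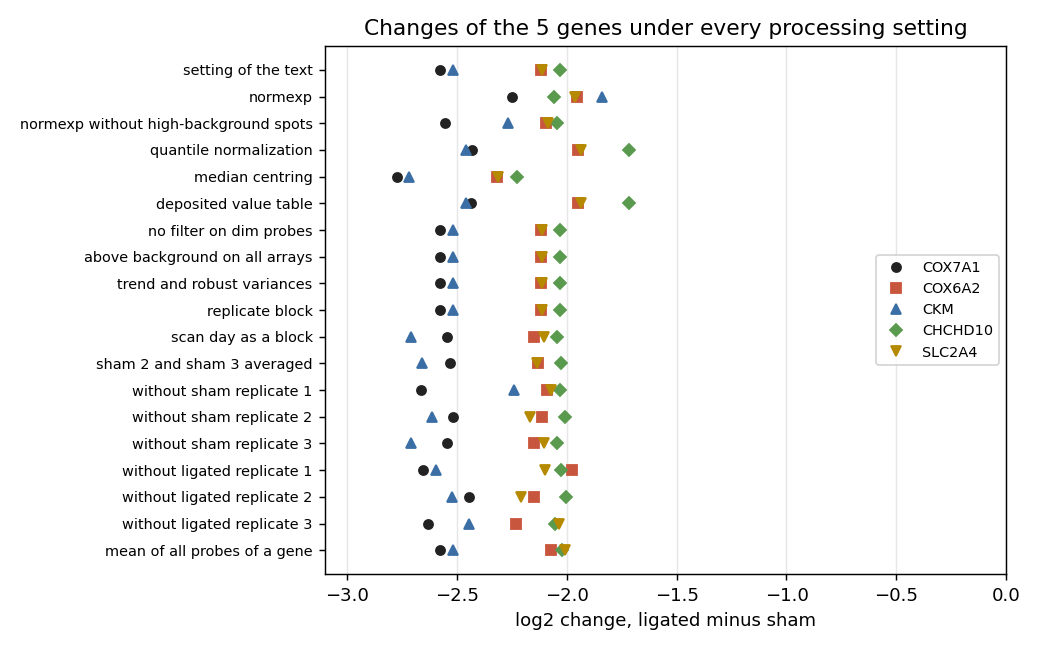
Log2 change, ligated minus sham, of the 5 genes under the setting of the text and each of 18 alternatives. Every point lies below 0, from -2.77 to -1.72.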

How the data were processed

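Total RNA of basilar artery smooth muscle cells was labelled with Cy3 and read on 6 one-colour Agilent rabbit arrays, 3 sham and 3 ligated. The submitters' processing notes name Agilent Feature Extraction 10.7. The processed signal is, per the file headers, an intensity after background subtraction, not scaled between arrays, and the raw signal and local background are intensity values too. The deposited spot flags are of the kind other. The deposited value table is in log2, and how it was made is not stated.

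Here, outlier spots were left out (2 to 19 an array), repeated spots averaged, and the 75th percentile of each array (a signal of 157 to 251) subtracted in log2. A probe was tested when well above background on at least 3 of 6 arrays, which kept 27410 of 43603. The test was limma 3.58.1 under R 4.3.3 (two-sided, 4 residual degrees of freedom before moderation, Benjamini-Hochberg over all tested probes, threshold 0.05). On simulated data for this comparison, over 27410 probes, 198 of 200 changed probes were recovered. The planted changes were larger than those of every passing partner gene but HK2, and the simulated arrays varied independently. The recovery therefore does not give the sensitivity for smaller changes or for these arrays. Probes were named from the files through rabbit gene symbols of assembly mOryCun1.1 (21990 with 1 symbol, 3 with several, 21610 with none, 9724 symbols), and the brightest tested probe stands for a gene. Positions come from the array files (oryCun2).

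The members and the 16 gene lists were chosen with earlier results of these data known. Named genes are the members, their relatives, a fixed set of regulators and contractile genes, up to 4 passing genes of a list (or 2 with the smallest p), and the 5 nearest in profile. Markers, other subunits and the genes in the closing section were named beside them. The 18 alternatives were other background corrections, scalings, filters, variance models, blocks and probe rules, the deposited value table, the average of sham 2 and sham 3, and each array left out in turn.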

Additional observations from a re-analysis of the deposited data

How the results depend on the processing

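Among the 18 alternatives, the probe filters, the variance model and the replicate block could not move the changes of the 5 genes. Across all 18, each of these genes stayed lower in ligated arteries, between -2.77 and -1.72. Their median, -2.12, moved to -2.32 with median centring, which shifts the median of all probes by -0.20 (normexp background correction shifts it by 0.20), and lay between -2.23 and -2.09 with an array left out. CHCHD10 had its smallest change, -1.72, with quantile normalization and in the deposited value table, and CKM had -1.84 with normexp. The count of 2290 passing probes was 0 with normexp (limma, 615 at an unadjusted p under 0.05), 1524 without the filter on dim probes, 552 with scan day as a block (sham 3 is alone in its scan day, so this is the fit without sham 3), 595 with sham 2 and sham 3 averaged, and 552 to 2269 with an array left out. The 9 passing partner genes became 0 with normexp, 3 without the filter, 15 with trend and robust variances, 0 with scan day as a block, 0 with sham 2 and sham 3 averaged, and 0 to 7 with an array left out. Normexp without spots of high local background gave 2242 probes and 13 partner genes. The share of higher calls, 68.3%, was 52.2% with median centring and 57.3% with that last setting. COX5B, CHCHD2 and DES also lost their calls with quantile normalization, and PHKG1 and PYGM with normexp without those spots. The cause of these differences was not tested. With the replicate block, 1295 probes and 3 partner genes passed and the median of the 5 genes was -2.12. Same-numbered arrays correlated at 0.43, -0.57 and 0.58, so the numbers were not taken as pairs.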

Other observations

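The contractile gene with the lowest change was LMOD1, a nucleator of smooth muscle actin filaments, at -2.07, beside -2.58 to -2.03 for the 5 energy genes. Its SD over the ligated arrays was 1.10, and it did not pass the limma test, though it did in 2 of 18 other settings. It was singled out after its value was seen. In the muscle fuel list, PDK4, which blocks the entry of pyruvate into mitochondria, and PLN, a regulator of the calcium pump of the sarcoplasmic reticulum, had changes of -1.51 and -1.31 without passing, and neither overlapped between groups. PLN passed in 3 of 18 other settings and PDK4 in none.

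A further probe carries the gene name of COX6A2 copy a in the array files but was designed on an expressed-sequence clone and is not among the 15. Its reverse complement matched the copy b probe at 28 of 34 overlapping bases, while the same strand matched at 9 of 21 at best. It read -0.77, -0.46 and -0.84 in sham and -0.89, -1.48 and -0.84 in ligated arteries, so its groups overlapped (change -0.38, limma adjusted p = 0.358). Whether that probe reads a transcript of COX6A2 was not tested.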
